A study of Homo sapiens with 12 samples.

Results

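The cytosolic ribosomal protein genes encode the proteins that, with the ribosomal RNAs, build the large and small subunits of the cytoplasmic ribosome. They were taken as every table row whose symbol is RPL or RPS with a number and an optional A, X or L, plus RPLP0, RPLP1, RPLP2 and RPSA, and 81 genes met that rule among 60671 genes in one deposited table and 60666 in the other. Of these, 49 belong to the large subunit or are paralogs of its genes, and 32 to the small subunit, including its paralog RPS27L. Expression was measured by RNA sequencing in SZ95 sebocytes, an immortalised human sebaceous gland line, so all libraries come from 1 cell line. The 4 groups were LA+RVT, LA, PGN+RVT and PGN, with 3 libraries each that the design text calls biological replicates. RVT is resveratrol, a plant polyphenol. The labels do not expand LA and PGN, which are taken to be linoleic acid (a fatty acid) and peptidoglycan (a bacterial cell wall polymer). No untreated group was analysed, and doses and times are not given in the labels, so each comparison is of RVT on top of a stimulus that its control cells also received.

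A ribosome holds, with few exceptions, a single copy of each of its proteins, and cells make them in matched amounts. Their mRNAs begin with a terminal oligopyrimidine (TOP) tract, a run of C and T letters at the transcription start. Through this tract the protein LARP1 and the kinase mTOR control their translation and stability together. In sebocytes, as in other dividing cells, these transcripts are among the most abundant in the cytoplasm.

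To show what such starts look like, the windows below give the 50 bases before the RefSeq transcription start and the first 10 transcribed bases. They are shown for 7 of the members with the largest RVT changes, those with a single start in the table used. RPL30, RPS20 and RPL7 were left out of this choice, whatever their number of starts. Sequences are from RefSeq on GRCh38.p14, 5′ to 3′ on the gene's own strand. Capitals mark CTTTC lying within 10 bases before to 20 bases after the start, the only motif of those searched that was found in them.
RPS29, chr14:49598701-49598760, minus strand: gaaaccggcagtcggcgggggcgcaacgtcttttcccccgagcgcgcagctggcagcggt
RPL31, chr2:101002239-101002298, plus strand: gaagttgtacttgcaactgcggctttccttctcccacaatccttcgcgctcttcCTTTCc
RPL22, chr1:6199586-6199645, minus strand: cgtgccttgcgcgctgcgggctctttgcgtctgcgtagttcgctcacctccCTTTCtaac
RPS7, chr2:3575210-3575269, plus strand: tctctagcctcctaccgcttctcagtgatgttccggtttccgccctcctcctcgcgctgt
RPL36A, chrX:101390961-101391020, plus strand: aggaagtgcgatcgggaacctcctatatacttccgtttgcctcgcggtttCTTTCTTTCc
RPL14, chr3:40457289-40457348, plus strand: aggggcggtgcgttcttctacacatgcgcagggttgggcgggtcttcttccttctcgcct
RPL28, chr19:55385882-55385941, plus strand: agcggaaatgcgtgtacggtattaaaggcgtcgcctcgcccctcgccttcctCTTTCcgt

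The table held windows for 64 of the 81 members, 79 windows in all. CTTTC stood near the start on the transcribed strand in 33 of these 79 windows (41.8%), against 4.26% of all 35116 windows, and on the other strand in 2.53% against 3.17%. The letters CCGGAAG, a core bound by ETS family factors, were found on either strand of the full window of 300 bases in 34.2% of member windows and 10.3% of all windows. CTTTC is contained in neither CCGGAAG nor its reverse complement. RPL31, which rose with RVT under LA, carries CTTTC. So do RPL28, which fell under LA, RPL22, which fell under PGN, and RPL36A, which fell in both arms. RPS29, RPS7 and RPL14, which fell in both arms, do not carry it in this window. A match describes letters and says nothing of which start these cells used.

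Levels are given as TPM, a unit in which reads are scaled to the length of the transcript and the sum over a library is fixed, which allows levels to be set against each other between genes. The 77 members with a uniform ribosomal protein name, 46 large and 31 small, had mean levels between 264.9 TPM (RPS26) and 4494 TPM (RPL13) in LA+RVT, and between 254.1 and 4994 TPM for the same genes in LA. In PGN+RVT they lay between 334.0 TPM (RPL36A) and 5017 TPM (RPL13), and in PGN between 387.9 TPM (RPS26) and 5270 TPM (RPS2). The highest member was therefore 17.0-fold above the lowest in LA+RVT, 19.7-fold in LA, 15.0-fold in PGN+RVT and 13.6-fold in PGN. RPS2, RPL13 and RPS21 had the highest means over the 12 libraries.

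Replicates lay close together. The median coefficient of variation of a member was 2.21% in LA+RVT, 2.19% in LA, 2.48% in PGN+RVT and 3.83% in PGN. A value over 10% occurred for RPS28 in LA+RVT (11.6%) and for RPL9 in PGN (10.7%). The order of the members was nearly the same with and without RVT, with a Spearman rho across the 77 genes of 0.985 between LA+RVT and LA and 0.988 between PGN+RVT and PGN. These correlations share genes and transcript lengths and describe levels, not effects.

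The ribosomal protein share of all TPM was lower with RVT in both arms. It averaged 12.98% ± 0.137 in LA+RVT and 14.6% ± 0.278 in LA, and 15.1% ± 0.316 in PGN+RVT and 15.9% ± 0.147 in PGN (SD, n = 3 each). No library of an RVT group reached the lowest library of its control. TPM is a share and keeps no sequencing depth, so depth is unknown and no counting interval can be given, and less of one class of RNA cannot be told apart from more of the others. In such bulk samples fewer cells of a type and less RNA per cell cannot be told apart either. The share of mitochondrially encoded transcripts moved with it, at 13.1% in LA+RVT against 14.0% in LA and 10.7% in PGN+RVT against 11.5% in PGN, and its part in the result was not tested.

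The large subunit share averaged 7.62% ± 0.0829 in LA+RVT and 8.48% ± 0.157 in LA, and 8.87% ± 0.193 in PGN+RVT and 9.28% ± 0.0651 in PGN. The small subunit share averaged 5.36% ± 0.0547 in LA+RVT and 6.08% ± 0.121 in LA, and 6.25% ± 0.126 in PGN+RVT and 6.64% ± 0.0825 in PGN. The ratio of summed large to small subunit TPM was 1.419, 1.423 and 1.420 in the LA+RVT libraries, against 1.396, 1.392 and 1.393 in the LA libraries. It was 1.410, 1.424 and 1.424 in the PGN+RVT libraries, against 1.404, 1.389 and 1.401 in the PGN libraries. The ratio was thus slightly higher with RVT in both arms with no overlap between groups, and the step was small next to the fall of either sum. The small subunit sum includes RPS29, which lost 40.8% of its mean TPM under LA. The part of this single gene in the ratio was not tested. With 3 libraries against 3, an exact permutation test cannot go below p = 0.1, and no p is given for these sums.

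**Figure D1:**
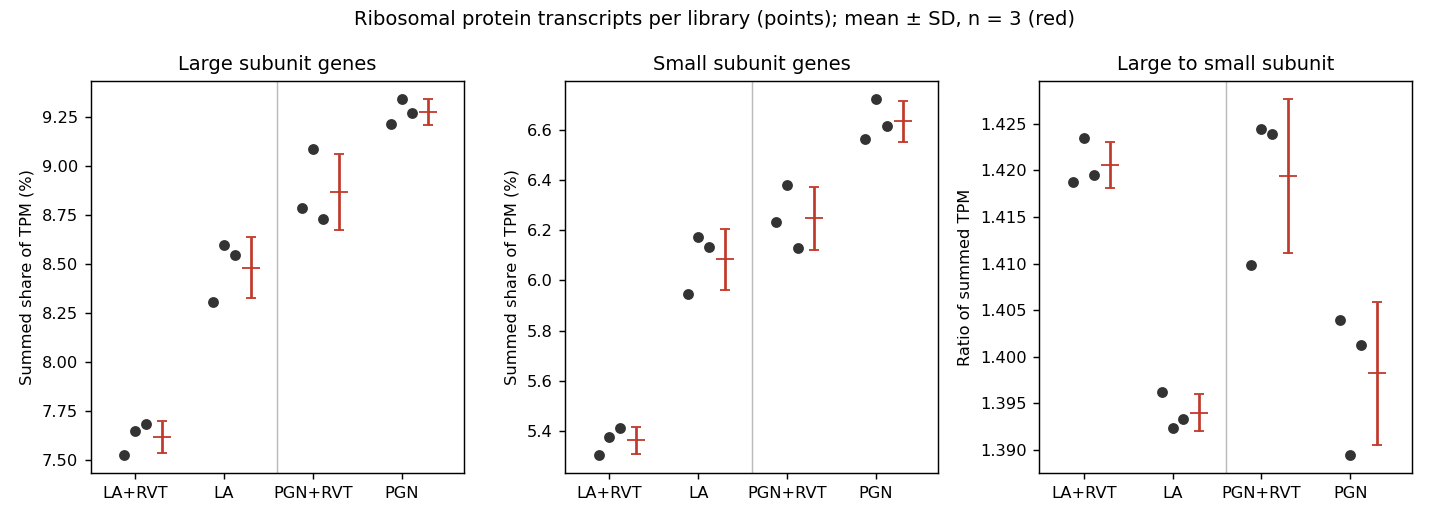
Summed share of TPM (%) of large subunit genes (left) and small subunit genes (middle) and the ratio of the sums (right), by group; each point is a library, and the red mark with bar is the mean ± SD of 3 libraries. Both sums sit lower in LA+RVT than in LA and in PGN+RVT than in PGN, with mean ratios of 1.421 against 1.394 and 1.419 against 1.398. The vertical axes do not start at 0.

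Most ribosomal protein genes were lower by a small amount in LA+RVT than in LA. Of the 79 members tested, 58 fell and 1 rose (limma on log2(TPM + 1), adjusted p under 0.05 over all genes tested), where 5.07% of all tested genes fell and 10.7% rose. RPL3L and RPL10L were below the filter of a mean of 1 TPM and were not tested. The median log2 change of the tested members was -0.17, against 0.036 over all tested genes, and the fallers lost between 5.14% and 40.8% of their mean TPM, with a median loss of 11.9%. All 3 LA+RVT libraries lay below all 3 LA libraries for 65 members, a pattern that 12.8% of tested genes showed. They lay above for 1 member, a pattern that 23.4% of tested genes showed. Of the 59 calls, 42 stayed past the threshold whichever single library was left out, and the number of fallers ranged from 44 to 56.

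Both subunits took part. In the large subunit 34 of 47 tested members fell and 1 rose (median log2 change -0.16), and in the small subunit 24 of 32 fell (median -0.18). Proteins shared by all domains of life, the universal class, had 30 fallers of 33 (median -0.17), and the class found in eukaryotes or in eukaryotes and archaea had 26 fallers and 1 riser of 42 (median -0.15).

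The deepest fall under LA was that of RPS29, a small zinc-binding protein of the small subunit head (uS14, ENSG00000213741, chr14:49570984-49599164 on GRCh38). Its TPM was 1170, 1279 and 1243 in LA+RVT, against 2038, 2020 and 2174 in LA. It was 1552, 1534 and 1465 in PGN+RVT, against 1714, 1745 and 1724 in PGN. The groups did not overlap in either arm, and the drop was 40.8% of the mean under LA and 12.2% under PGN. The log2 change was -0.75 ± 0.041 (SE, adjusted p = 0.000213) under LA and -0.19 ± 0.031 (adjusted p = 0.00933) under PGN. Under LA it lay well outside the band of 3 scaled median absolute deviations around the members' median, from -0.40 to 0.071, and it was the only member below it.

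RPL30 and RPS20 were also among the 5 largest falls under LA. RPL30 (eL30, chr8:98024851-98046469), a large subunit protein, had 1461, 1456 and 1520 TPM in LA+RVT, against 1807, 1927 and 1794 TPM in LA (log2 change -0.32 ± 0.032, adjusted p = 0.00169). RPS20 (uS10, chr8:56067295-56074581), of the small subunit head, had 1308, 1283 and 1308 TPM in LA+RVT, against 1546, 1653 and 1648 TPM in LA (-0.31 ± 0.029, adjusted p = 0.00114). The groups were apart for both genes, and under PGN neither was called (log2 changes -0.05 and -0.03, adjusted p = 0.3 and 0.65).

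A single member rose under LA. RPL31 (eL31, chr2:101001715-101024032), which lies beside the exit of the nascent peptide tunnel, had 1269, 1339 and 1263 TPM in LA+RVT, against 1056, 1192 and 1157 TPM in LA. The groups did not overlap, and the log2 change was 0.19 ± 0.048 (adjusted p = 0.0422), above the upper limit of the members' band. The call was lost without LA+RVT replicate 1, 2 or 3 and without LA replicate 1 or 3, with adjusted p between 0.0425 and 0.117 over the 6 omissions. It was also lost when library medians were equalised (adjusted p = 0.12). RPL31 had 1575, 1677 and 1630 TPM in PGN+RVT, against 1533, 1690 and 1692 TPM in PGN, which overlap.

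**Figure D2:**
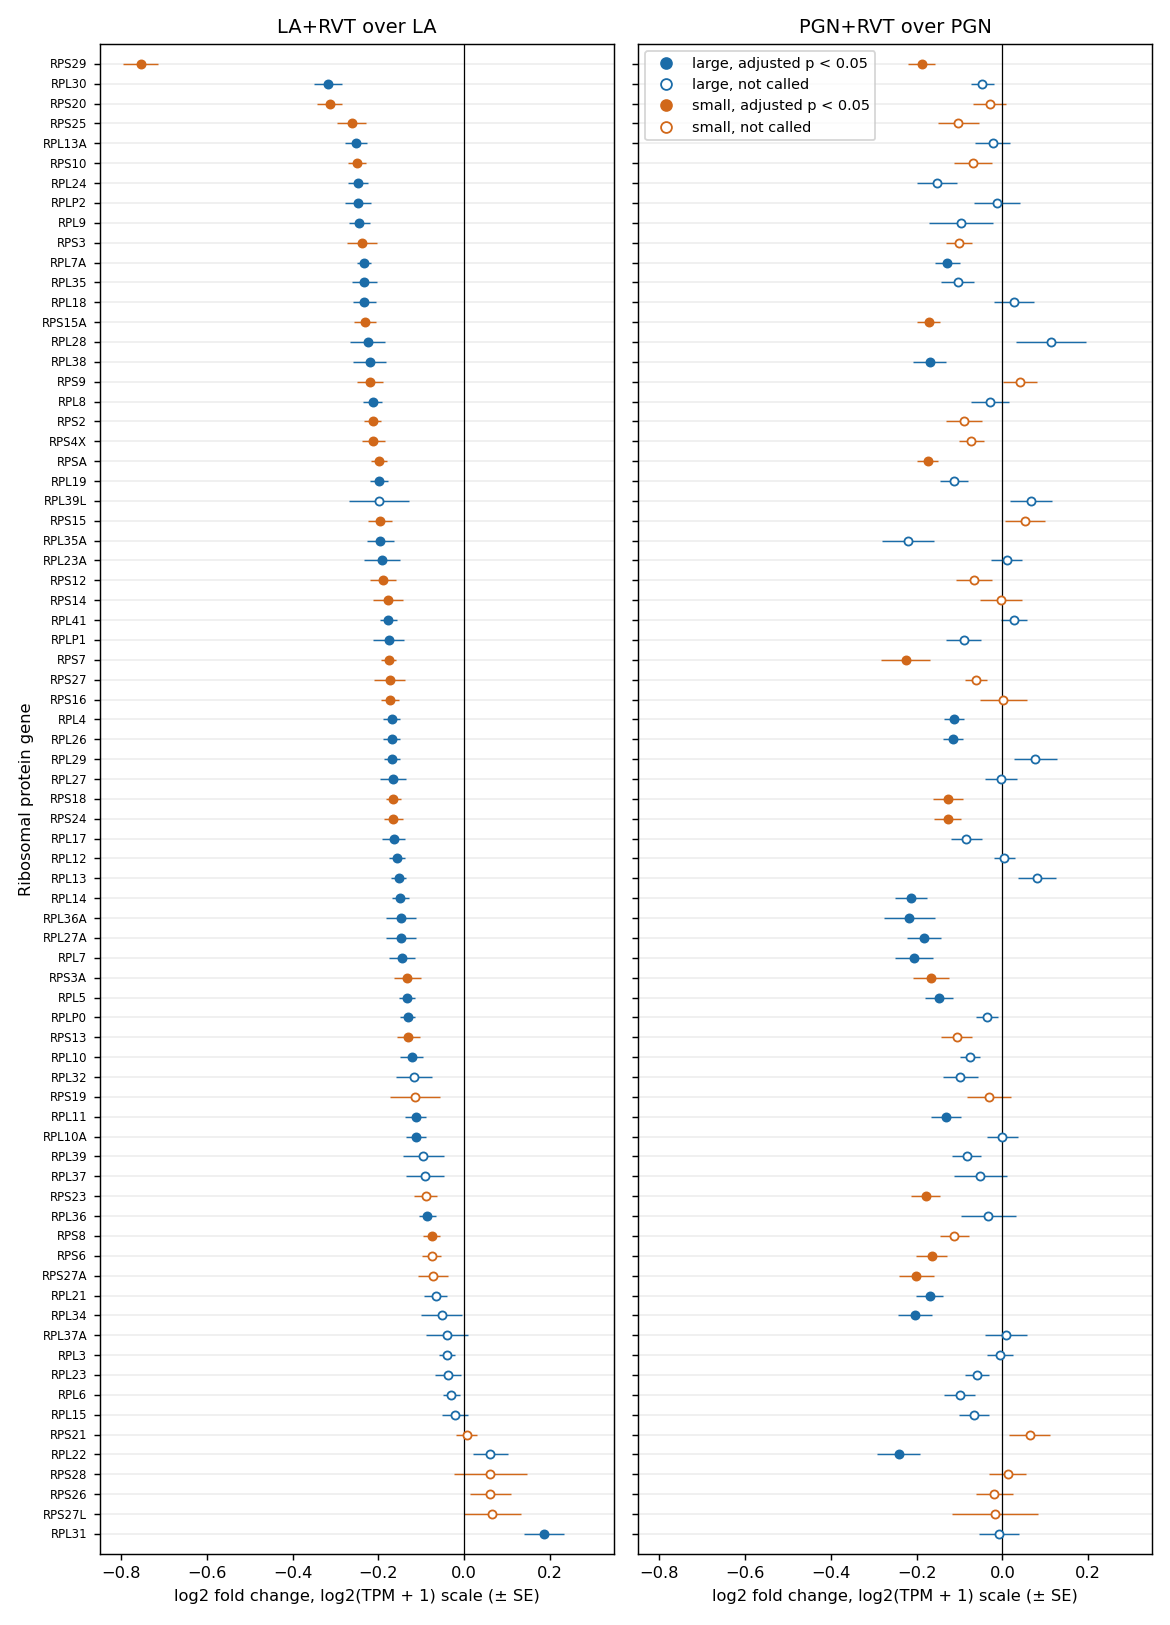
log2 fold change (log2(TPM + 1) scale, bars ± SE from limma) of 75 of the 79 tested members, LA+RVT over LA on the left and PGN+RVT over PGN on the right, in the order of the LA arm; filled points have an adjusted p under 0.05, blue is the large and orange the small subunit. RPS29 stands apart at -0.75 on the left, RPL31 is the single filled point above 0, and 23 points are filled on the right.

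In PGN+RVT, 24 ribosomal protein genes were lower than in PGN. Of the 79 tested members these 24 fell and none rose, where 4.92% of all tested genes fell and 10.6% rose. The median log2 change of the members was -0.08, against 0.064 over all tested genes, and the fallers lost between 7.59% and 15.6% of their mean TPM. All 3 PGN+RVT libraries lay below all 3 PGN libraries for 41 members, a pattern of 11.4% of tested genes, and above for none, against 24.7% of tested genes. In the large subunit 13 of 47 fell and in the small subunit 11 of 32. The count rests on single libraries: it was 4, 10 and 6 without PGN+RVT replicate 1, 2 and 3, and 7 without PGN replicate 2. RPS15A, RPS29 and RPSA were among those called in each of the 6 omissions. With no filter on low values 2 members were called.

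The 5 largest falls under PGN were those of RPL22, RPS7, RPL36A, RPL14 and RPL7. RPL22 (eL22, chr1:6185020-6209389), an RNA-binding protein of the large subunit that mice can live without, had 1274, 1262 and 1293 TPM in PGN+RVT, against 1628, 1485 and 1422 TPM in PGN. The log2 change was -0.24 ± 0.050 (adjusted p = 0.0196), and the call was lost without PGN+RVT replicate 1, 2 or 3 and without PGN replicate 2, with adjusted p up to 0.069. In LA+RVT it had 553.0, 582.7 and 551.9 TPM, against 508.8, 557.9 and 551.6 TPM in LA, which overlap. RPL22 and RPL22L1, its paralog outside the rule, were both lower with RVT under PGN: RPL22L1 averaged 36.8 ± 1.69 TPM in PGN+RVT and 51.1 ± 8.06 TPM in PGN (log2 change -0.45 ± 0.11, adjusted p = 0.0299).

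RPS7 (eS7, chr2:3575205-3580920), which acts in small subunit assembly, had 1490, 1525 and 1546 TPM in PGN+RVT, against 1928, 1786 and 1634 TPM in PGN (-0.23 ± 0.058, adjusted p = 0.04). RPL14 (eL14, chr3:40457292-40468587) had 727.6, 720.4 and 741.5 TPM in PGN+RVT, against 878.3, 852.1 and 809.6 TPM in PGN (-0.21 ± 0.038, adjusted p = 0.0121). RPL7 (uL30, chr8:73290267-73295789), which binds ribosomal RNA, had 1064, 1075 and 1111 TPM in PGN+RVT, against 1327, 1198 and 1230 TPM in PGN (-0.21 ± 0.044, adjusted p = 0.021). PGN replicate 1 was the highest control library for all 3 genes, and the groups did not overlap. Without PGN+RVT replicate 1 none of the 3 was called, without PGN+RVT replicate 2 or 3 RPS7 and RPL7 were not, and without PGN replicate 1 or 2 RPS7 was not.

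RPL36A (eL42, chrX:101390824-101396154) had 340.9, 353.5 and 307.8 TPM in PGN+RVT, against 406.7, 377.5 and 380.0 TPM in PGN. Its change of -0.22 ± 0.059 (adjusted p = 0.0491) was lost in each of the 6 omissions. A readthrough row that joins it to HNRNPH2 held 31.2% as much TPM as RPL36A in the PGN table and 22.9% in the LA table, so reads of the pair may be divided between rows. RPS7, RPL36A, RPL14 and RPL7 also fell under LA, with log2 changes of -0.18, -0.15, -0.15 and -0.15 (adjusted p = 0.00143, 0.0319, 0.00365 and 0.0217). The calls of RPS7 and RPL14 under LA held in each of the 6 omissions. That of RPL36A was lost in all omissions but that of LA+RVT replicate 1, and after removing the GC and length trend (adjusted p = 0.211), and that of RPL7 in all but that of LA replicate 1. With no filter on low values the LA calls of both were also lost.

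**Figure D3:**
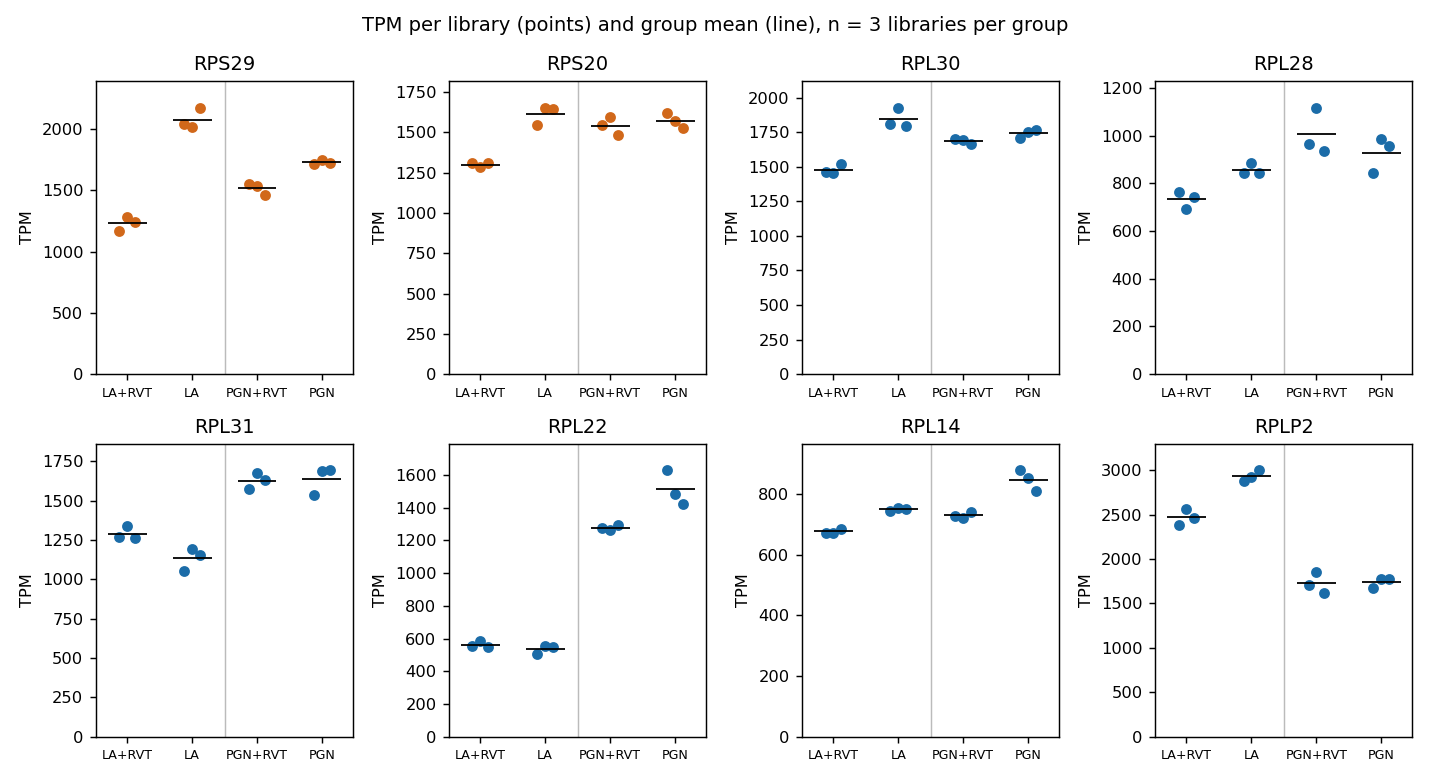
TPM in every library (points) and group mean (line) for RPS29, RPS20, RPL30, RPL28, RPL31, RPL22, RPL14 and RPLP2, with axes that start at 0 and 3 libraries per group. RPS29 averages 1231 TPM in LA+RVT against 2077 TPM in LA, and RPL22 is higher in both PGN groups than in both LA groups.

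The arms called partly different members. In both, 18 members fell, which is 31.0% of the LA fallers and 75.0% of the PGN fallers. Another 40 were called under LA only and 6 under PGN only, which by itself does not show a difference. The overlap does not show a shared response either. Its percentages are near the shares among all 79 tested members, of which 58 fell under LA and 24 under PGN. Across the 79 members the log2 changes of the arms had a Spearman rho of -0.08. The arms have different control libraries, and genes are not independent replicates.

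The difference of the RVT effects (PGN arm minus LA arm) was tested directly over 12 libraries. It was higher for 23 members, lower for 1 and not called for 55, where 7.73% of all tested genes were higher and 7.03% lower. In the large subunit 15 were higher and 1 lower, and in the small subunit 8 were higher. A positive value here means a less negative or more positive RVT change under PGN than under LA. Among the 3 largest were RPS29 (0.57 ± 0.053, adjusted p = 5.61e-05) and RPL28 (0.34 ± 0.1, adjusted p = 0.0432). The 1 lower member was RPL22 (-0.30 ± 0.069, adjusted p = 0.0132). Pseudogene rows of RPL22 summed to a mean of 88.0 TPM in LA+RVT and 134.5 TPM in LA, with overlapping libraries. In PGN+RVT and PGN they summed to 9.42 and 13.3 TPM. Reads may thus be divided differently in the 2 arms, and the difference with these rows added was not tested. The count of higher members fell to 15, 14, 14, 15 and 14 without LA+RVT replicate 1, LA replicate 2, LA replicate 3, PGN+RVT replicate 1 and PGN+RVT replicate 2. It was 12 with no filter, 9 with library medians equalised and 5 after removing the trend on GC content and length, an alternative added after seeing the data.

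RPL28 (eL28, chr19:55385345-55403250) had 765.7, 693.4 and 743.1 TPM in LA+RVT, against 845.5, 884.2 and 843.9 TPM in LA, and 966.6, 1118 and 934.2 TPM in PGN+RVT, against 845.9, 986.5 and 956.3 TPM in PGN. It fell under LA with separate groups, and the groups overlapped under PGN. The RPL28 difference was lost in 10 of 12 omissions, all but those of PGN+RVT replicate 3 and PGN replicate 2, with adjusted p up to 0.0968.

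The change went with base composition in opposite ways in the 2 arms. Across the 79 members the Spearman rho between transcript GC content and log2 change was -0.33 under LA, 0.53 under PGN and 0.53 for the difference, against 0.020, 0.19 and 0.14 over all genes with a GC value. Of the 25 members with the highest GC content (53.4% to 63.6%), 20 fell under LA and none under PGN. Of the 25 with the lowest (42.1% to 47.6%), 15 fell under LA and 13 under PGN. With the trend on GC content and length removed, 53 of the 59 calls under LA, 15 of the 24 under PGN and 6 of the 24 in the difference were kept. The fallers then numbered 54 under LA and 22 under PGN, newly called members included, and RPS21 was a second riser under LA (log2 change 0.08, adjusted p = 0.042). Without the removal RPS21 was not called under LA, and its log2 change lay between -0.012 and 0.032 over the omissions of a single library. The part of GC content in these results was not tested further. RPS29 had a log2 change of -0.66 (adjusted p = 0.000477) under LA after the removal and of -0.31 (adjusted p = 0.062) under PGN.

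**Figure D4:**
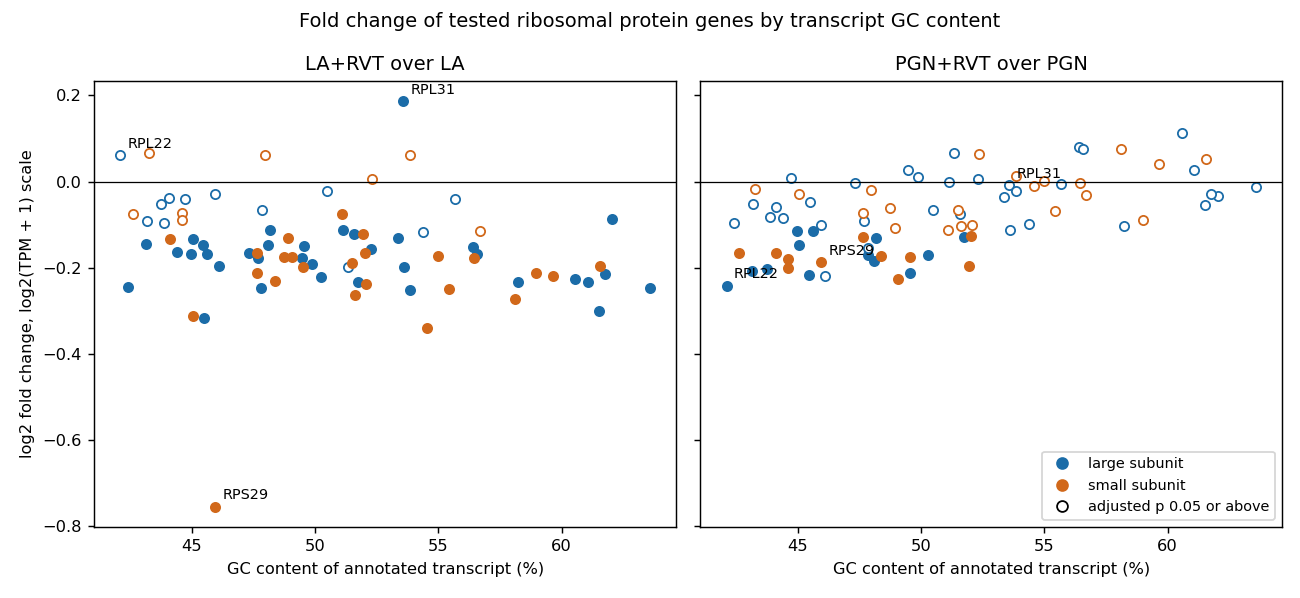
log2 fold change of the 79 tested members against the GC content (%) of the annotated transcript, LA+RVT over LA on the left and PGN+RVT over PGN on the right; filled points have an adjusted p under 0.05. On the right the filled points lie at the low and middle GC contents and none is among the 25 members of highest GC content, while on the left 20 of those 25 fell.

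The 5S ribonucleoprotein pair fell in both arms. RPL5 (uL18, chr1:92831983-92841924) and RPL11 (uL5, chr1:23691742-23696835) carry the 5S RNA into the large subunit and, when free, bind MDM2. RPL5 had 1164, 1147 and 1175 TPM in LA+RVT, against 1268, 1262 and 1292 TPM in LA, and 1276, 1314 and 1310 TPM in PGN+RVT, against 1492, 1427 and 1404 TPM in PGN. Its log2 changes were -0.13 ± 0.018 (adjusted p = 0.00523) under LA and -0.15 ± 0.033 (adjusted p = 0.0252) under PGN. RPL11 had 2247, 2266 and 2286 TPM in LA+RVT, against 2376, 2461 and 2520 TPM in LA, and 2449, 2408 and 2411 TPM in PGN+RVT, against 2790, 2605 and 2572 TPM in PGN. Its changes were -0.11 ± 0.024 (adjusted p = 0.0218) and -0.13 ± 0.036 (adjusted p = 0.049), and 5 of 6 omissions ended each call, all but LA replicate 1 under LA and all but PGN replicate 3 under PGN. The RPL5 call under PGN was lost without PGN+RVT replicate 1, 2 or 3 and without PGN replicate 2. Both PGN calls were also lost with the GC and length trend removed (adjusted p = 0.104 for RPL5 and 0.0872 for RPL11) and with no filter on low values (0.111 and 0.233), which also ended the RPL11 call under LA (0.1). Groups did not overlap for either gene.

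The stalk proteins RPLP0, RPLP1 and RPLP2, which recruit the translational GTPases, fell under LA and were not called under PGN. RPLP0 (uL10, chr12:120196686-120201235) had 2909, 2889 and 2940 TPM in LA+RVT, against 3134, 3229 and 3213 TPM in LA (-0.13 ± 0.017, adjusted p = 0.00396). RPLP1 (chr15:69452784-69456194) had 985.4, 1024 and 1086 TPM in LA+RVT, against 1146, 1165 and 1185 TPM in LA (-0.18 ± 0.036, adjusted p = 0.0207). RPLP2 (chr11:809647-812880) had 2383, 2567 and 2459 TPM in LA+RVT, against 2874, 2920 and 2997 TPM in LA (-0.25 ± 0.030, adjusted p = 0.00318). RPLP1 lost its call without LA+RVT replicate 2 and without LA replicate 2 or 3. Under PGN the log2 changes were -0.04, -0.09 and -0.01. In the direct test of the difference between arms RPLP1 was not called. The RPLP0 and RPLP2 differences were called but lost in 10 and 8 of 12 omissions.

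Between the tables, levels are set side by side only. In PGN relative to LA, RPL22 stood at 2.80 times and RPLP2 at 0.594 times, the extremes of the 77 members around a median of 1.12. For RPL22 the tables also differ in how a copy is listed: the pseudogene RPL22P1 is listed at 0 in the PGN table, while pseudogene rows of RPL22 held 20.2% as much TPM as RPL22 in the LA table and 0.815% in the PGN table.

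The 4 paralogs within the rule were low beside their counterparts or not detectable. RPL3L, the muscle form of RPL3, was listed at between 0 and 0.11 TPM in the LA-table libraries and at up to 1.09 TPM in the PGN-table ones, beside 1404 to 1654 TPM for RPL3. RPL10L, a testis form of RPL10, was listed at 0 in 11 of 12 libraries. RPL39L averaged 87.6 ± 8.30 TPM in LA+RVT, 100.4 ± 3.24 TPM in LA, 78.0 ± 1.45 TPM in PGN+RVT and 74.4 ± 3.10 TPM in PGN, between 3.81% and 5.96% of its sum with RPL39. RPS27L, known as a p53 target, averaged 65.0 ± 4.31 TPM in LA+RVT and 62.0 ± 4.09 TPM in LA, and 79.0 ± 5.88 TPM in PGN+RVT and 80.2 ± 10.5 TPM in PGN. Neither RPL39L nor RPS27L was called in an arm. Outside the rule, RPL36AL held more of its pair. It made up 38.1% of its sum with RPL36A in LA+RVT and 33.8% in LA, and 43.9% in PGN+RVT and 36.4% in PGN. Under PGN, where RPL36A was lower with RVT, RPL36AL averaged 261.4 ± 12.2 TPM in PGN+RVT and 222.2 ± 7.79 TPM in PGN.

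Reads of near-identical copies may be divided between rows, which makes the values of some members uncertain. Among 1283 pseudogene rows, those of RPL23A held 243% as much TPM as RPL23A in the LA table and 226% in the PGN table. The figures were 107% and 130% for RPS28, 48.9% and 45.2% for RPL39 and 42.2% and 52.8% for RPL21. The RPS28 pseudogene rows summed to 451.0, 255.5 and 245.7 TPM in LA+RVT, against 571.3, 525.3 and 495.1 TPM in LA, while RPS28 itself was not called. With pseudogene rows added, the ratio of large to small subunit remained higher with RVT in both arms, at 1.463 in LA+RVT against 1.427 in LA and 1.447 in PGN+RVT against 1.430 in PGN.

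Genes that build ribosomes moved the other way under LA. Of 42 ribosome biogenesis genes, 25 rose, 1 fell and 16 were not called (median log2 change 0.24). Among all tested genes, 10.7% rose and 5.07% fell under LA. NOLC1, a nucleolar scaffold, averaged 90.9 ± 1.40 TPM in LA+RVT and 70.0 ± 1.08 TPM in LA (0.37 ± 0.032, adjusted p = 0.000861). TCOF1, which serves ribosomal RNA transcription, changed by 0.39 ± 0.035 (adjusted p = 0.00106) and the helicase DDX21 by 0.39 ± 0.037 (adjusted p = 0.00136). The gene that fell was the methyltransferase FBL (-0.16, adjusted p = 0.0435). Under PGN none rose and 4 fell, NOP56 (-0.36), NCL (-0.22), TSR1 (-0.22) and DKC1 (-0.14). Among all tested genes, 10.6% rose and 4.92% fell under PGN. In the difference 25 were lower and none higher, where 7.03% of all tested genes were lower and 7.73% higher. The riser count under LA stayed between 19 and 28 in every alternative run. The PGN count was 2 without PGN+RVT replicate 1, 2 or 3 and without PGN replicate 2 or 3, and 10 after removing the trend on GC content and length.

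The counts in the other lists stand beside 10.7% of all tested genes that rose and 5.07% that fell under LA, and 10.6% that rose and 4.92% that fell under PGN. Among 15 RNA polymerase I genes 4 rose under LA, POLR1G, POLR1F, POLR1A and POLR1B (0.65, 0.33, 0.35 and 0.54), and none was called under PGN. Among 12 ribosomal protein chaperones 4 rose under LA, led by PDCD2L (0.62 ± 0.1, adjusted p = 0.00911), and 1 rose and 1 fell under PGN. Of 17 genes listed as regulators of TOP mRNAs, 4 rose and 1 fell under LA, and 1 rose and 1 fell under PGN. For the regulators the fallers and the PGN counts are near the shares of all genes. MYC, a transcription factor, averaged 74.4 ± 2.66 TPM in LA+RVT and 45.0 ± 1.05 TPM in LA (0.71 ± 0.041, adjusted p = 0.000256). LARP1 averaged 81.7 ± 1.46 TPM in LA+RVT and 61.6 ± 1.54 TPM in LA (0.40 ± 0.035, adjusted p = 0.000985).

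Translation factors with TOP-type mRNAs did not follow one direction. Of 20, 4 fell and 3 rose under LA, and 5 fell and none rose under PGN, where 5.07% of all tested genes fell and 10.7% rose under LA and 4.92% fell and 10.6% rose under PGN. The 3 risers are near the share of all genes. EEF1A1 and EEF1G fell in both arms, with EEF1A1 at -0.09 under LA and -0.15 under PGN, and EEF1G at -0.16 and -0.11. Of 4 paralogs outside the rule, RPL36AL rose (0.23 ± 0.048, adjusted p = 0.02) and RPL22L1 fell under PGN, and none was called under LA. Of 13 mitochondrially encoded genes, 8 fell and 1 rose under LA and 4 fell under PGN. These lists were chosen with earlier results of these data known.

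**Figure D5:**
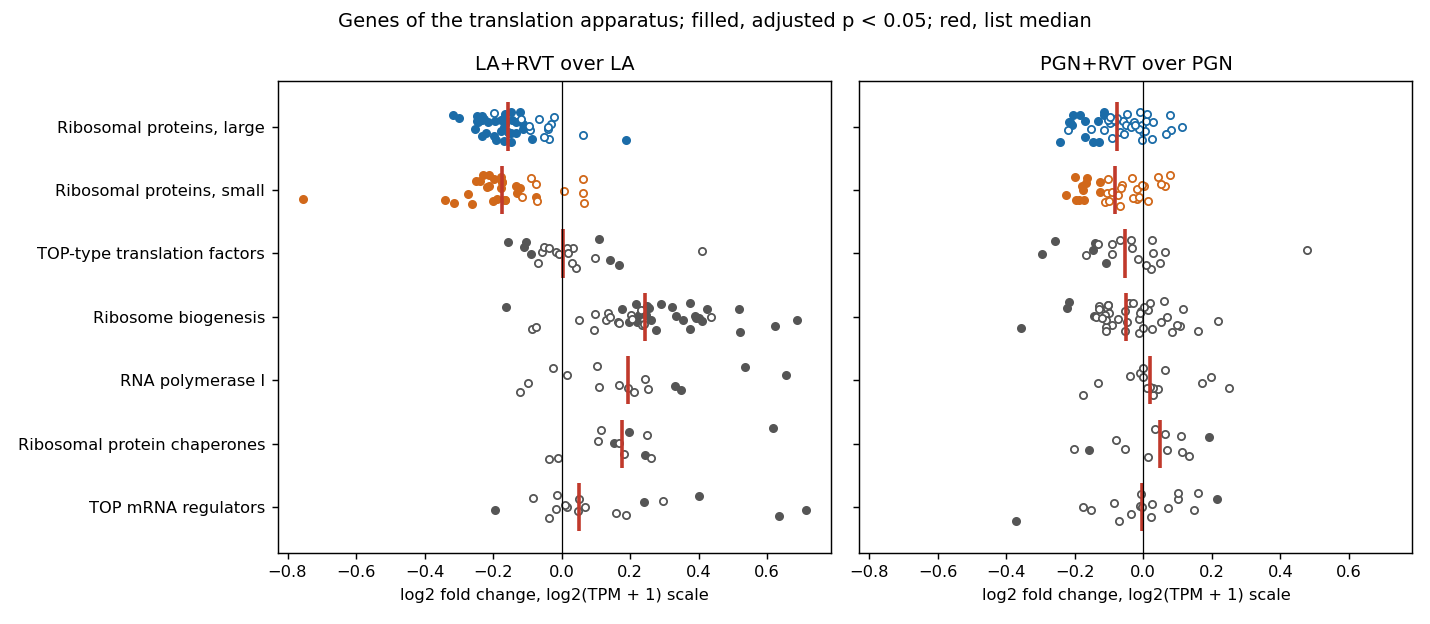
log2 fold change (log2(TPM + 1) scale) of genes of the translation apparatus by list, LA+RVT over LA on the left and PGN+RVT over PGN on the right; each point is a gene, filled where the adjusted p is under 0.05, and the red bar is the list median. On the left both ribosomal protein rows lie mostly below 0 and the biogenesis row mostly above it (median 0.24).

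The labelled cell type was checked on markers. KRT7, KRT8 and KRT18 had group means between 1203 and 3104 TPM and PPARG between 22.3 and 38.7 TPM, while the late sebocyte genes MC5R and AWAT2 were listed at 0 in all groups. Immune and endothelial markers summed to under 1 TPM in every library, and 4 fibroblast markers to between 10.1 and 16.3 TPM. The 12 sebaceous markers summed to 5846 to 5909 TPM in LA+RVT, against 4863 to 4985 TPM in LA, and to 7541 to 7651 TPM in PGN+RVT, against 7276 to 7401 TPM in PGN. KRT7, KRT8 and KRT18 made up most of these sums, while MUC1 of the same list averaged 88.4 ± 12.8 TPM in LA+RVT against 128.6 ± 13.6 TPM in LA, and 43.5 ± 6.69 TPM in PGN+RVT against 64.0 ± 13.5 TPM in PGN (SD, n = 3 each). PLIN2 averaged 8.04 ± 0.775 TPM in LA+RVT against 9.48 ± 1.82 TPM in LA, and 4.69 ± 0.507 TPM in PGN+RVT against 3.86 ± 0.239 TPM in PGN. PPARG averaged 23.1 TPM in PGN+RVT against 38.7 TPM in PGN. KRT7 averaged 1673 TPM in PGN+RVT against 1753 TPM in PGN, while the means of KRT8 and KRT18 were higher in PGN+RVT. FADS2 averaged 119.7 TPM in PGN+RVT against 56.7 TPM in PGN, and SCD 170.9 TPM against 124.1 TPM. The sebaceous list thus did not move as one under PGN. Keratinocyte markers summed to 170.6 to 179.3 TPM in LA+RVT, against 205.6 to 217.9 TPM in LA, and to 374.7 to 384.3 TPM in PGN+RVT, against 456.5 to 478.5 TPM in PGN. The sebaceous and keratinocyte sums were apart between groups in both arms. The keratinocyte sum, mostly KRT5, was lower with RVT, as the ribosomal protein share was, but its list did not move as one. KRT14 averaged 2.26 TPM in LA+RVT against 1.77 TPM in LA, and 11.2 TPM in PGN+RVT against 9.11 TPM in PGN. KRT10 averaged 27.3 TPM in LA+RVT against 21.3 TPM in LA, and 11.2 TPM in PGN+RVT against 13.8 TPM in PGN. The part of these markers in the results was not tested.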

How the data were processed

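RNA of SZ95 sebocytes was sequenced in 12 libraries, 3 per group, and groups and replicate numbers came from the sample labels. The authors deposited TPM, per the file headers one column per library, in one table for the LA and one for the PGN libraries. The submitters' processing notes name HISAT2 2.1.0, RSEM 1.3.1, DESeq2 1.24.0 and GRCh38.p13 with no role or order. No annotation release is named in these sources. The tables share 60630 gene identifiers and were made separately, so LA was not tested against PGN.

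Values were transformed as log2(TPM + 1), so fold changes of low genes are understated. Genes averaging 1 TPM or more in the libraries fitted went into limma 3.58.1 under R 4.3.3 (two-sided, prior variance with a trend, Benjamini-Hochberg over all genes, threshold 0.05), which was checked on simulated data. The arms were fitted on 6 libraries each and the difference of the RVT effects on 12. Members were read from these fits. GC content, length and positions came from GENCODE 29 on GRCh38, and 99.1% of tested genes had a GC value. Nothing says whether replicates came from separate cultures on separate days, so the p-values cover only the spread of these libraries.

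Named genes were the 5 largest falls and rises per arm and 3 per direction in the difference among called members, members beyond 3 scaled median absolute deviations, the 3 highest and 3 lowest levels, members differing over 2-fold within a group at 5 TPM or more (none was found), RPL5, RPL11, the stalk proteins, the paralogs with their counterparts, and up to 3 genes per other list and arm. A few genes that this rule takes are not reported here. List genes beyond these were named after their values were seen. The members, lists and rules were chosen with earlier results of these data known. Alternatives were a pseudocount of 0.1, no filter, a mean of 5 TPM, equalised library medians, no mitochondrially encoded genes, a replicate block, each library left out and, added after seeing the data, removal of GC and length trends.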

Additional observations from a re-analysis of the deposited data

Results flagged for a closer look

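The RVT effect differed between the PGN and LA arms in the direct test over 12 libraries for 24 members, of which 21 are given here; values are log2 differences, PGN arm minus LA arm. In the small subunit they were RPS29 (0.57), RPS20 (0.28), RPS9 (0.26), RPS15 (0.25), RPS10 (0.18) and RPS4X (0.14). In the large subunit they were RPL28 (0.34), RPL30 (0.27), RPL18 (0.26), RPL29 (0.24), RPL13 (0.23), RPLP2 (0.23), RPL13A (0.23), RPL41 (0.20), RPL23A (0.20), RPL8 (0.19), RPL27 (0.16), RPL12 (0.16), RPL7A (0.11) and RPLP0 (0.096). RPL22 (-0.30) was the 1 member with a lower value, with the limit from its pseudogene rows given above. Of the 24, 15 were called whichever single library was left out, and 6 were called after the trend on GC content and length was removed. Of the 12 omissions of a single library, 11 ended the call of RPL7A and 10 those of RPL28 and RPLP0. The calls of RPS10, RPL23A and RPL27 were lost in 9, that of RPLP2 in 8, of RPL8 in 6 and of RPS4X in 5. The limit from pseudogene rows given above also holds for RPL23A.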

How the results depend on the processing

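No named member that was called in the reported or an alternative run changed direction between them. Some estimates that were not called also changed sign. With the GC and length trend removed, RPL34 under LA was at 0.0093, against -0.091 to -0.013 over the 6 omissions. With no filter on low values the called genes numbered 1610 under LA (2426 as reported) and 1384 under PGN (2277), members falling under PGN 2 (24), and members higher in the difference 12 (23). Deviations of same-numbered replicates were hardly correlated (between -0.0702 and 0.0407), which with 3 libraries per group cannot settle whether the samples were paired. The replicate block gave 1502 genes under LA and 11 members falling under PGN. Equalised library medians gave 9 members higher in the difference, and removal of the GC and length trend 5. Leaving out one library gave 1428 to 1690 genes under LA, 1095 to 1861 under PGN, 4 to 20 members falling under PGN, and 14 to 22 higher in the difference. Among called genes, those higher made up 67.8% under LA and 49.1% with medians equalised or 55.5% with the trend removed. Under PGN they made up 68.4%, 45.5% and 49.2%, and in the difference 52.4%, 44.8% and 44.2%. Without mitochondrially encoded genes the ribosomal protein share was 14.9% in LA+RVT and 16.9% in LA, and 16.9% in PGN+RVT and 18.0% in PGN. With pseudogene rows it was 13.4%, 15.0%, 15.6% and 16.4% in that order, and the ratio of large to small 1.463, 1.427, 1.447 and 1.430. The cause was not tested for any of these. Depth is unknown for TPM and limits the precision of low genes.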
